A study of Mus musculus with 19 samples.

Results

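Trim66, Hrk, Usp26, Ephx2 and Mcf2 are 5 of the 12942 genes measured by RNA-seq in mouse embryonic stem cell (ESC) lines. They were chosen by their CPM (read counts scaled to library size): these were among the lowest in ESCs returned from 2i/L to S/L medium when set against ESCs kept in S/L. On the log2 scale used here they held ranks 1, 2, 4, 5 and 6 from the lowest in that comparison, running from -2.69 for Trim66 to -2.33 for Mcf2. Gm514, at rank 3 (-2.49), was not among the genes chosen. The next genes below the choice were Gpa33 (-2.32) and Nupr1 (-2.32), so the values on both sides of the limit nearly coincide. That comparison made the choice and is given as a description without a test.

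Each of the 19 libraries came from cells of 1 male ESC line, named J-34, J-35 or J-37. The lines were at passage 4 when the media were split. Groups of 2 libraries then spent 6 passages, to passage 10, in one of 4 media (S/L, PKCi/L, a2i/L, 2i/L), or 3 passages in S/L+PD to passage 7. Groups of 3 libraries spent 16 passages in 2i/L or S/L, to passage 20. The last group of 3 spent 16 passages in 2i/L and then 3 in S/L, to passage 23. By common usage S/L is serum with the cytokine LIF, and 2i/L is LIF with inhibitors of the kinases Mek and Gsk3; the other media are named as labelled. All cells grew on mouse fibroblast feeders and were sorted for the surface marker SSEA1, and no genotype other than the line was labelled. For S/L+PD and for PKCi/L, 1 library each is titled J-37 but labelled J-35 elsewhere. By the titles, these media are therefore compared with S/L or 2i/L partly across lines.

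The 5 genes belong to different pathways. Trim66 encodes a tripartite motif protein of the TIF1 family, chromatin cofactors that bind HP1 proteins, and in mouse it is known from spermatids. Usp26, on the X chromosome, encodes a protease that removes ubiquitin and is known chiefly from testis. Hrk (harakiri) encodes a BH3-only protein, a class that starts apoptosis by binding prosurvival members of the BCL2 family. Ephx2 encodes soluble epoxide hydrolase, which turns fatty acid epoxides, among them those made from arachidonic acid, into diols. Mcf2, also on the X, encodes Dbl, the founding member of the Dbl family of guanine nucleotide exchange factors.

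Promoter windows, 250 bases before to 50 after an annotated start, are shown because 2i/L is known to lower DNA methylation in ESCs and methylation acts at CpG pairs. Windows from RefSeq (build GRCm38.p6) were at hand here for 4 of the 5 genes, and none was at hand for Ephx2. Capitals mark CpG, the motif CG, which reads the same on both strands.
Trim66 (chr7:109508085-109508384, minus strand): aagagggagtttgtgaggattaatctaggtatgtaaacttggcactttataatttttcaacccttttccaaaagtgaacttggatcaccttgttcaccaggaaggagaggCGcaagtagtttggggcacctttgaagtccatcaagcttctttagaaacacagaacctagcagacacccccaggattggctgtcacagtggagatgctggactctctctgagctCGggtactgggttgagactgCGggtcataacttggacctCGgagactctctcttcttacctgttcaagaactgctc
Usp26 (chrX:51801184-51801483, minus strand): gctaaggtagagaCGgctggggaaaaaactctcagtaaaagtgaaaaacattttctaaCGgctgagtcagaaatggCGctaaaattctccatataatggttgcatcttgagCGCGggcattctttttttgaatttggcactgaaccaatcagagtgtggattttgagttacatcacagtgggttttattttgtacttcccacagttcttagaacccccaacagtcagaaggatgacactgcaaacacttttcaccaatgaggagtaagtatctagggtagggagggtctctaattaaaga
Hrk (chr5:118169514-118169813, plus strand): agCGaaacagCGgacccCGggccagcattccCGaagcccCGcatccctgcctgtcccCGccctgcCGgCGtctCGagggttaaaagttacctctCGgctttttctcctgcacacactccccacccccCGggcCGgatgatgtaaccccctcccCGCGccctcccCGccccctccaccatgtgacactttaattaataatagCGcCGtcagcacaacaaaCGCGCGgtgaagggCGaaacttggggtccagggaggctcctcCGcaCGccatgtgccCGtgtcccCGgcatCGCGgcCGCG
Mcf2 (chrX:60179040-60179339, minus strand): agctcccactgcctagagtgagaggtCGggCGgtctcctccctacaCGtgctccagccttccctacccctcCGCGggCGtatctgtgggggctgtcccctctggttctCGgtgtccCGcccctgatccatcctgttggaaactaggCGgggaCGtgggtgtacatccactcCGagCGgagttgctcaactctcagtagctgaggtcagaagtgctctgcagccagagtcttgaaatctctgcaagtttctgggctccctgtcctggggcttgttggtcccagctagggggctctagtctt
The windows differ in CpG content. Hrk held 29 CpG pairs, more than 87.1% of all 32851 windows, at a GC content of 65.7%. Mcf2 held 12 at the start shown and 2 at a second annotated start. Usp26 held 5 and Trim66 held 4, below the median of 7 over all windows. At least 1 CpG was present in 94.6% of windows. GC boxes (GGGCGG, read as CCGCCC on the other strand) occurred at 2 places in Hrk and 2 in Mcf2, and 35.7% of all windows held one. An E-box (CACGTG, the same on both strands) occurred 1 time in Mcf2 and in 7.15% of all windows. These letter counts describe the windows only, and methylation was not measured here.

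CPM were deposited with 2 decimals. Differences are in log2(CPM + 0.5), which shrinks the changes of low values, and ± after them is limma's standard error. The 10 libraries of passages 7 and 10 held 33.9 to 45.4 M (mega) reads, as read from the steps between low values. A depth of 49.5 to 82.0 M reads could be read for 4 of the 9 libraries of passages 20 and 23. These 2 sets stand apart: Lars2, whose locus holds a ribosomal RNA-like repeat, read 56.9 to 3797 CPM in the earlier and 14870 to 29548 CPM in the later libraries. The listed genes summed to 421426 to 465897 CPM in the earlier and to 292986 to 396883 CPM in the later set. ESC markers were present throughout: 5 of 6 were listed, summing to 713 CPM or more in each library. Samples are bulk RNA, in which fewer cells with a transcript and less transcript per cell cannot be told apart.

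After the return to S/L the 5 genes did not share one history. Trim66, Hrk, Usp26 and Ephx2 were already below S/L at passage 20 in 2i/L in every line. The S/L libraries of passage 20 took part in the choice, which favours genes high in them, so this order carries no test. In 2i/L against S/L at passage 20, limma called 1592 of all 12942 genes lower and 6469 higher. With TMM scaling 4153 were called lower and 4176 higher. After the return Hrk, Usp26 and Ephx2 overlapped their 2i/L ranges, and Trim66 was lower still. Within every line Ephx2 was higher than in 2i/L. By CPM Mcf2 was higher in 2i/L than in S/L, by 0.56 in log2, where all genes had a median of 0.33. TMM scaling brought that median to -0.01, so the size of this rise depends on the scaling. Mcf2 was low after the return alone, so "kept low" does not describe Mcf2. For Trim66 the name depends on the reference. Its 2i/L libraries of passage 20 (mean 1.06 CPM) overlapped S/L at passage 10 (0.99 CPM).

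Trim66 read 4.18, 2.44 and 4.72 CPM in S/L at passage 20 (J-34, J-35, J-37 in this order, also for the other genes), 1.21, 1.03 and 0.94 in 2i/L at passage 20, then 0.21, 0.05 and 0.19 after the return. The 3 groups did not overlap, and every line was lowest after the return. The 0.05 CPM of J-35 stands for about 4 reads, with an exact Poisson 95% interval of 0.0138 to 0.13 CPM that covers counting error only. Usp26 read 6.98, 8.43 and 9.51 CPM in S/L, 1.34, 1.27 and 1.38 in 2i/L, then 1.64, 1.19 and 0.66 after the return. Its return libraries lay on both sides of the 2i/L libraries and all under S/L.

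Hrk read 11.4, 9.18 and 10.24 CPM in S/L, 0.94, 1.03 and 1.29 in 2i/L, then 2.19, 0.93 and 0.81 after the return. J-34 alone was above its own 2i/L library, at 233% of it, and stood at 19.2% of its S/L library. Ephx2 read 14.15, 9.73 and 12.83 CPM in S/L, 1.43, 1.05 and 0.57 in 2i/L, then 3.37, 1.85 and 1.19 after the return. Each line was higher after the return than in 2i/L, at 176% to 236% of it, and still at 9.28% to 23.8% of S/L. Mcf2 read 18.61, 14.82 and 19.02 CPM in S/L, 22.31, 25.27 and 30.56 in 2i/L, then 4.29, 2.36 and 2.77 after the return. Every line was highest in 2i/L, and after the return stood at 9.06% to 19.2% of its 2i/L library. Between 2i/L and the return, which share libraries with the choice, 30.3% of all genes were called lower and 15.8% higher; nothing is read from this for the 5 genes.

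Other marker genes differed among these groups as well. The summed level of 4 primitive endoderm markers (Gata6, Gata4, Dab2 and Col4a1, of 5 listed) was 18.1 to 24.1 CPM in S/L, 38.0 to 61.5 in 2i/L and 73.1 to 125 after the return. Gata6 was under 1 CPM in each library of the first 2 groups. The sum hides unlike members: in the return against 2i/L 2 of the 4 rose and 1 fell (median 0.21). Against S/L 3 of the 4 rose in the return (median 1.39). The 9 measured feeder markers of 10 summed to 442 to 594 CPM in 2i/L, against 37.4 to 56.8 in S/L and 31.5 to 40.2 after the return, where Dcn was under 1 CPM. The 5 germ cell markers summed to 29.4 to 36.8 CPM in S/L, 79.6 to 120 in 2i/L, where Mael was under 1 CPM, and 18.8 to 29.0 after the return. Of these 5, 3 fell and 1 rose in the return against S/L (median -0.59, and -0.82 with TMM scaling). ESC markers summed to 823 to 1002 CPM in S/L, 1245 to 1442 in 2i/L and 713 to 878 after the return. Their part in the levels of the 5 genes was not tested.

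**Figure D1:**
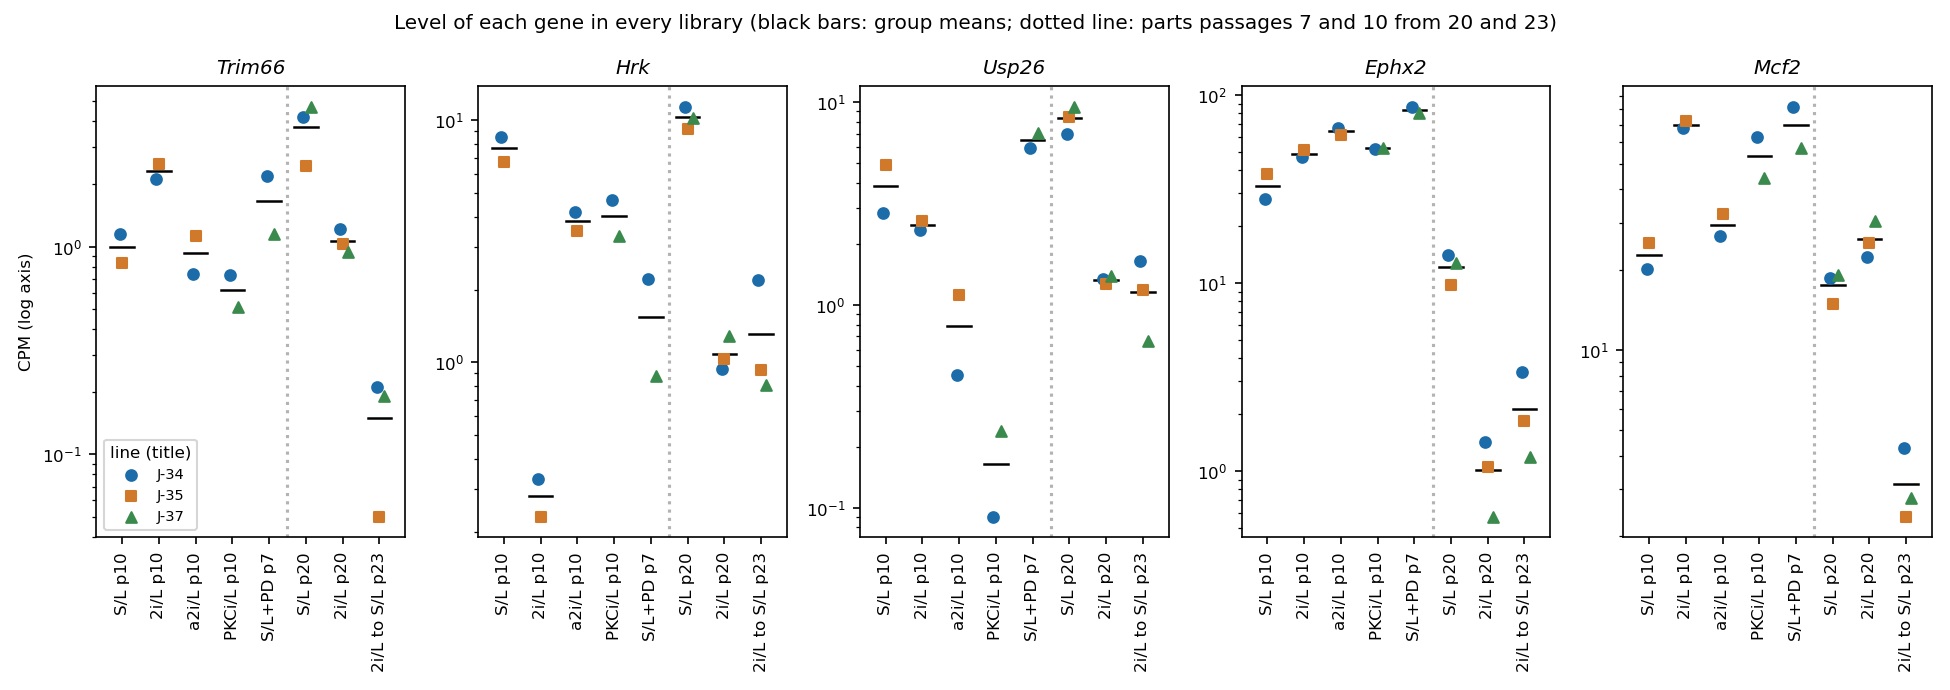
CPM of each gene in all 19 libraries, on log axes, by group. Points are libraries, coded by line, and black bars are group means; Trim66 and Mcf2 are lowest after the return, Hrk lowest in 2i/L at passage 10 (0.23 and 0.33 CPM), Usp26 lowest in PKCi/L (0.09 and 0.24 CPM) and Ephx2 lowest in 2i/L at passage 20.

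**Figure D2:**
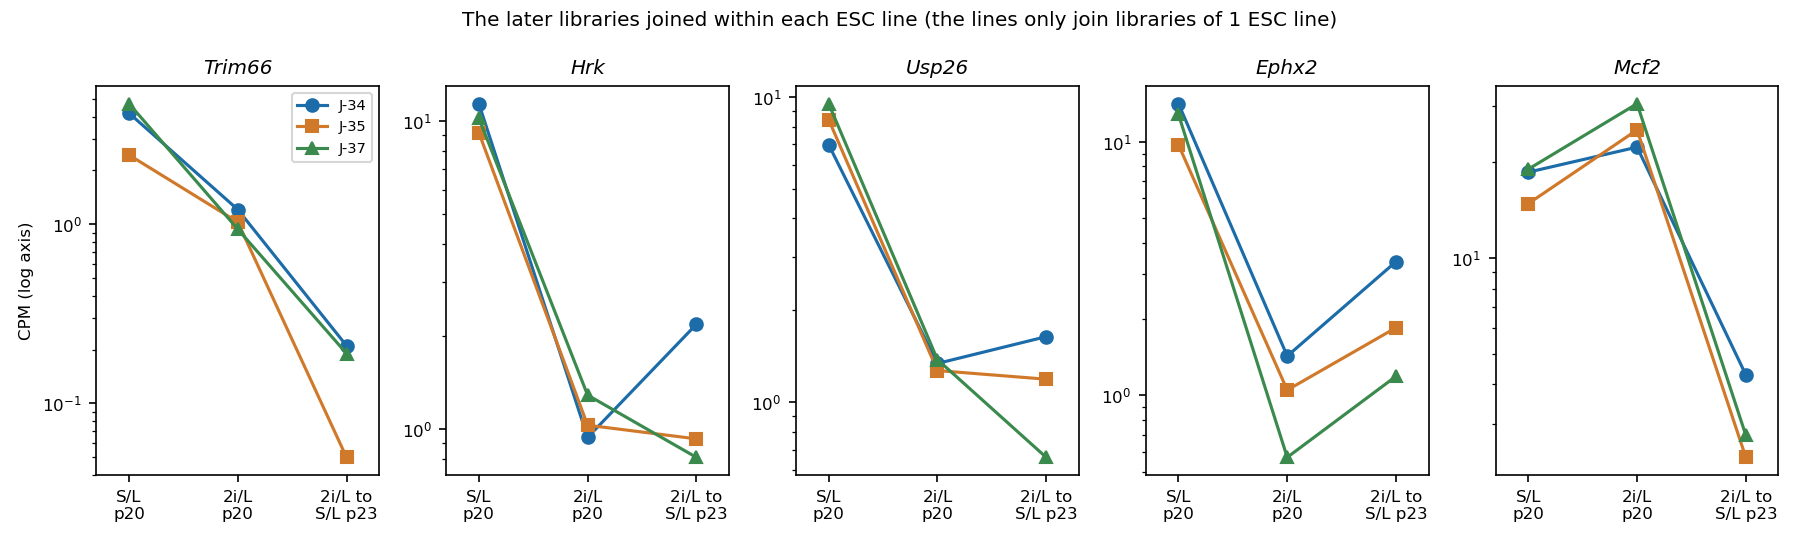
CPM on log axes of the 3 libraries of each ESC line in S/L at passage 20, 2i/L at passage 20 and after the return at passage 23; joining lines only link libraries of 1 ESC line. In each line Mcf2 is higher in 2i/L than in S/L and drops after the return. Trim66, Hrk, Usp26 and Ephx2 are below S/L in 2i/L already. The S/L and return libraries took part in the choice.

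The libraries of passages 7 and 10 did not take part in the choice, so the media were tested there. This was done in 7 comparisons among 5 groups of 2 libraries each, which share S/L or 2i/L as reference. S/L+PD stood at passage 7 after 3 passages in its medium, its references at passage 10 after 6. Its comparisons therefore cannot tell medium from passage or time in medium. An eighth comparison set 2i/L at passage 20 against passage 10. Calls rest on limma with Benjamini-Hochberg adjustment over all 12942 genes. In 2i/L against S/L at passage 10, 2 of the 5 genes rose and 1 fell, where 22.7% and 17.5% of all genes did. In a2i/L 1 rose and 2 fell (10.7% and 17.3% of all genes), in PKCi/L 2 rose and 2 fell (5.80% and 23.5%), and in S/L+PD 3 rose and 1 fell (16.4% and 19.3%). Hrk was the one called in the same direction in all 4, though not in PKCi/L with TMM scaling. With TMM scaling 2 rose and 2 fell in a2i/L (18.7% and 18.2% of all genes), and 2 rose and 1 fell in PKCi/L (2332 and 2413 of the 12942 genes), so the all-gene shares themselves depend on the scaling. Against 2i/L, 1 rose and 3 fell in a2i/L (11.8% and 23.9% of all genes) and 1 rose and 2 fell in PKCi/L (11.5% and 33.2%). In S/L+PD against 2i/L 3 rose, where 12.7% of all genes rose and 20.3% fell.

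Trim66 was higher in 2i/L at passage 10 than in S/L, the opposite order from passage 20. Libraries of J-34 and J-35 read 1.15 and 0.83 CPM in S/L, 2.11 and 2.51 in 2i/L, then 0.74 and 1.12 in a2i/L. The PKCi/L libraries read 0.73 and 0.51 CPM and the S/L+PD libraries 2.18 and 1.15. Trim66 rose in 2i/L over S/L (0.92±0.26, adjusted p = 0.00379). It fell in a2i/L (-0.98±0.26, adjusted p = 0.00249) and in PKCi/L (-1.33±0.26, adjusted p = 4.65e-05) against 2i/L. Against S/L the values were -0.06±0.26 in a2i/L, -0.41±0.26 in PKCi/L and 0.51±0.26 in S/L+PD, and none passed in limma. Without the J-35 S/L library the rise in 2i/L was 0.76 (adjusted p = 0.0614), and without the J-34 a2i/L library the fall against 2i/L was -0.79 (adjusted p = 0.0545). The S/L+PD pair decided other calls: without J-37 Trim66 was 0.86 over S/L (adjusted p = 0.027), and without J-34 its difference from 2i/L was -0.76 (adjusted p = 0.049). Over all alternatives the adjusted p ran from 0.00183 to 0.0614 for the rise in 2i/L and from 0.00106 to 0.0545 for the fall in a2i/L. For S/L+PD it ran from 0.027 to 0.74 against S/L and from 0.049 to 0.907 against 2i/L. From the highest group mean down, S/L at passage 20, 2i/L at passage 10, S/L+PD, 2i/L at passage 20, S/L at passage 10 and a2i/L each overlapped the next. PKCi/L and the return followed, each below the range of the group before it.

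Usp26 was lowest in PKCi/L and also low in a2i/L. S/L read 2.85 and 4.87 CPM at passage 10, 2i/L 2.35 and 2.6, a2i/L 0.45 and 1.12, PKCi/L 0.09 and 0.24, and S/L+PD 5.96 and 7.05. The 2 PKCi/L values stand for about 4 and 9 reads. Usp26 fell against S/L in PKCi/L (-2.68±0.26, adjusted p = 2.63e-10) and in a2i/L (-1.77±0.26, adjusted p = 1.54e-06). It was also lower than in 2i/L in both media, by -2.17±0.26 and -1.26±0.26. In S/L+PD Usp26 rose against S/L (0.72±0.26, adjusted p = 0.0272) and against 2i/L (1.23±0.26, adjusted p = 0.000257). The rise over S/L did not pass without the J-34 S/L library (0.38, adjusted p = 0.391), when J-37 was left out of S/L+PD (0.61, adjusted p = 0.156) or at a pseudocount of 0.1 (0.78, adjusted p = 0.08). For 2i/L against S/L the difference was -0.51±0.26 (adjusted p = 0.113), and -0.85 (adjusted p = 0.0295) without the J-34 S/L library. Over all alternatives the adjusted p ran from 0.00843 to 0.391 for the rise in S/L+PD and from 0.0295 to 0.724 for 2i/L. In order of group means, S/L at passage 20 and S/L+PD overlapped, then S/L at passage 10, 2i/L at passage 10 and 2i/L at passage 20 stood apart. The passage 20 2i/L libraries overlapped the return, the return overlapped a2i/L, and PKCi/L lay below.

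Hrk was low in every medium tested against S/L at passage 10 and lowest in 2i/L. Libraries read 8.56 and 6.74 CPM in S/L, 4.2 and 3.49 in a2i/L, 4.69 and 3.33 in PKCi/L, 2.21 and 0.88 in S/L+PD, and 0.33 and 0.23 in 2i/L. The S/L libraries overlapped none of the others. Hrk fell in 2i/L (-3.38±0.27, adjusted p = 1.04e-12), S/L+PD (-2.07±0.27, adjusted p = 1.15e-07), a2i/L (-0.90±0.27, adjusted p = 0.0112) and PKCi/L (-0.86±0.27, adjusted p = 0.0146). It was higher than in 2i/L in a2i/L (2.48±0.27), PKCi/L (2.52±0.27) and S/L+PD (1.31±0.27, adjusted p = 0.000221). After 2i/L, S/L+PD held the lowest early level. The fall in a2i/L did not pass without the J-34 S/L library (-0.74, adjusted p = 0.124) or the J-35 a2i/L library (-0.79, adjusted p = 0.0999). The fall in PKCi/L did not pass with TMM scaling (-0.68, adjusted p = 0.0527), without the J-34 S/L library (-0.70, adjusted p = 0.146) or without the J-37 PKCi/L library (-0.64, adjusted p = 0.161). Over all alternatives the adjusted p ran from 0.00219 to 0.124 in a2i/L and from 0.00348 to 0.161 in PKCi/L. In order of group means S/L at passage 20, S/L at passage 10 and PKCi/L did not overlap. PKCi/L overlapped a2i/L, S/L+PD overlapped the return and the return overlapped 2i/L at passage 20. Hrk in 2i/L at passage 10 lay below all of these.

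Ephx2 was high in the early libraries in every medium and low in the later ones. S/L read 28.16 and 37.92 CPM at passage 10, 2i/L 46.68 and 50.87, a2i/L 67.09 and 61.48, PKCi/L 51.96 and 52.56, and S/L+PD 86.95 and 80.71. None of the 5 early groups overlapped another, and S/L was the lowest of them. Ephx2 rose against S/L in S/L+PD (1.34±0.24, adjusted p = 2.82e-05), a2i/L (0.96±0.24, adjusted p = 0.00247) and PKCi/L (0.67±0.24, adjusted p = 0.0336). It was higher in S/L+PD than in 2i/L (0.78±0.24, adjusted p = 0.0118), a call absent without the J-34 2i/L library (0.71, adjusted p = 0.0828) or the J-34 S/L+PD library (0.72, adjusted p = 0.0643). In 2i/L against S/L it was 0.57±0.24 (adjusted p = 0.0577) and passed with the ESC line as replicate block (0.57, adjusted p = 0.0237), at a pseudocount of 1 CPM (0.56, adjusted p = 0.0334) and without the J-35 S/L library (0.78, adjusted p = 0.0423). Without the J-34 S/L library the a2i/L value was 0.75 (adjusted p = 0.0728) and the PKCi/L value 0.46 (adjusted p = 0.303). The PKCi/L call was also absent without its J-34 library (0.68, adjusted p = 0.0935), without its J-37 library (0.66, adjusted p = 0.104) and at a pseudocount of 0.1 (0.68, adjusted p = 0.0744). In a fit on the 10 early libraries alone, 2i/L over S/L (0.57, adjusted p = 0.0015) and a2i/L over 2i/L (0.39, adjusted p = 0.019) passed. Over all alternatives the adjusted p against S/L ran from 0.0015 to 0.383 in 2i/L, 2.95e-05 to 0.0728 in a2i/L and 0.000661 to 0.303 in PKCi/L. Against 2i/L it ran from 0.019 to 0.467 in a2i/L and from 0.000144 to 0.0828 in S/L+PD.

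Mcf2 was higher than S/L in both libraries of each other medium at passages 7 and 10. S/L read 20.12 and 25.27 CPM, 2i/L 67.78 and 71.98, a2i/L 26.62 and 32.26, PKCi/L 62.91 and 44.2, and S/L+PD 81.84 and 57.36. The 2i/L libraries lay inside the range of S/L+PD. Mcf2 rose against S/L in 2i/L (1.61±0.20, adjusted p = 3.61e-08), S/L+PD (1.58±0.20, adjusted p = 6.74e-08) and PKCi/L (1.21±0.20, adjusted p = 1.41e-05). It was lower in a2i/L than in 2i/L (-1.24±0.20, adjusted p = 6.59e-06), and against S/L a2i/L stood at 0.37±0.20 (adjusted p = 0.177). With TMM scaling that value passed (0.46, adjusted p = 0.0467). Against 2i/L, PKCi/L was -0.40±0.20 (adjusted p = 0.106), and -0.65 (adjusted p = 0.0256) without the J-34 PKCi/L library. Over all alternatives these adjusted p ran from 0.0467 to 0.62 and from 0.0256 to 0.671. In order of group means, 2i/L at passage 10, S/L+PD and PKCi/L each overlapped the next, as did a2i/L, 2i/L at passage 20 and S/L at passage 10. S/L at passage 20 lay below these, and the return below S/L at passage 20.

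Feeder markers differed most in S/L+PD, where Ephx2 and Usp26 had their highest early levels. The 9 measured markers summed to 1099 to 1785 CPM in S/L+PD, 71.2 to 117 in 2i/L and 9.98 to 16.9 in S/L at passage 10, where Col3a1, Col5a2, Postn, Lox and Dcn were under 1 CPM. They summed to 6.31 to 6.87 CPM in a2i/L and 10.7 to 16.8 in PKCi/L. There Ephx2 averaged 64.28 and 52.26 CPM, and Usp26 0.785 and 0.165. In 2i/L at passage 20, where they summed to 442 to 594 CPM, Ephx2 averaged 1.02 CPM and Usp26 1.33. The 5 germ cell markers summed to 240 to 298 CPM in 2i/L, 66.1 in both S/L libraries and 19.65 to 25.1 in PKCi/L. The sums hide unlike members, since in 2i/L against S/L 2 of the 5 germ cell markers rose and 3 fell. The sum of the 4 primitive endoderm markers was also highest in S/L+PD among the early groups, at 111 to 117 CPM. It was 44.0 to 56.0 CPM in S/L and 10.8 to 11.4 in 2i/L. These members were unlike as well: in S/L+PD against S/L 2 rose and 2 fell (median 0.13). Gata6 was under 1 CPM in S/L+PD and 2i/L, and Dab2 in S/L and 2i/L. The part of these cells or programmes in the levels of Trim66, Usp26, Ephx2 or Mcf2 was not tested.

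**Figure D3:**
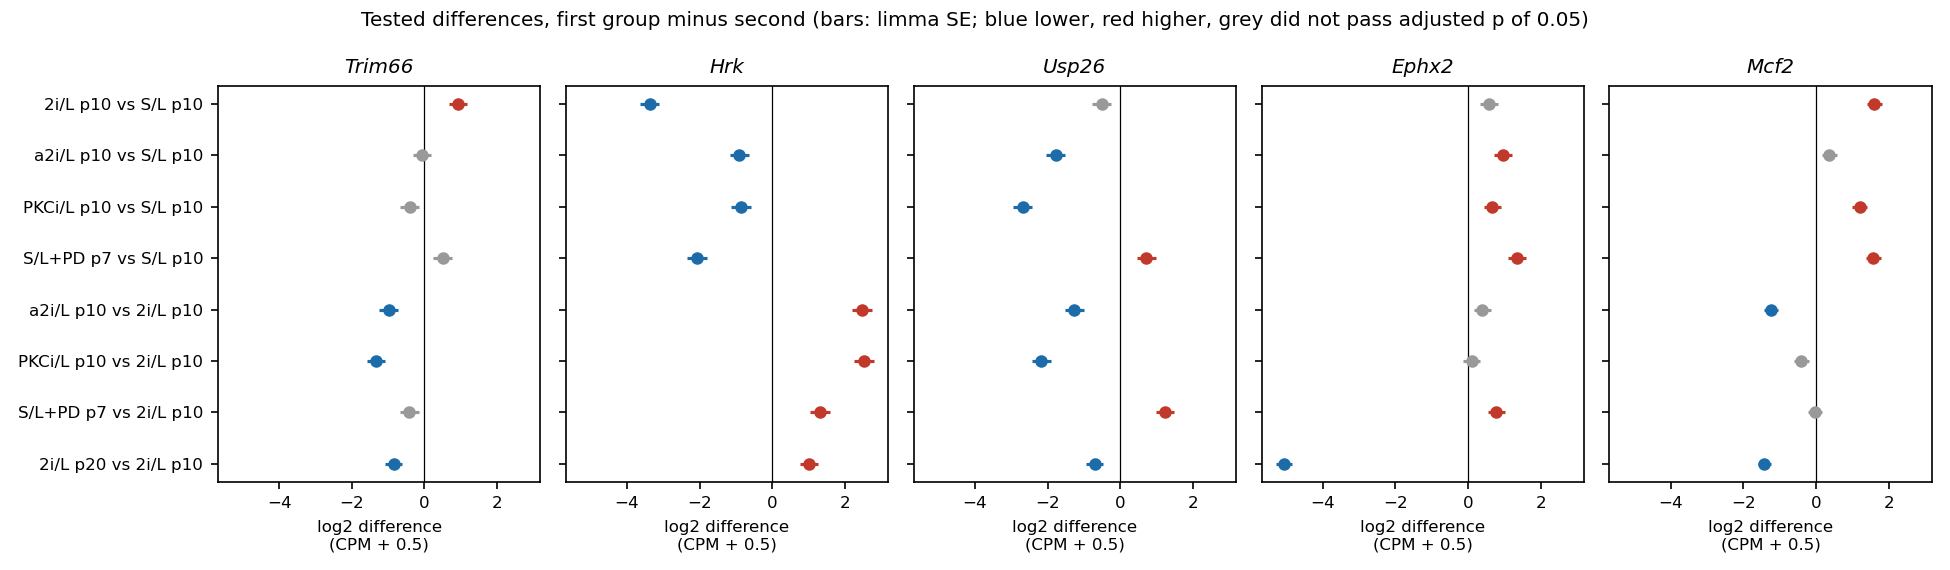
Log2 differences of the 5 genes in the 8 tested comparisons, first group minus second, with limma standard errors as bars. Hrk is lower than S/L in all 4 media of passages 7 and 10, Mcf2 and Ephx2 are higher where they pass, and Ephx2 has the largest shift, -5.06, between passages in 2i/L.

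From passage 10 to passage 20 in 2i/L, 4 of the 5 genes fell and Hrk rose, where 37.2% and 13.6% of all genes did. With TMM scaling 3 fell and 1 rose, where 28.4% and 24.2% of all genes did. Ephx2 fell from 48.8±2.96 (SD, n = 2) to 1.02±0.431 CPM (SD, n = 3), by -5.06±0.22 (adjusted p = 1.88e-19). Mcf2 fell from 69.9±2.97 to 26.05±4.18 CPM (-1.42±0.18, adjusted p = 1.36e-07), Trim66 by -0.85±0.23 (adjusted p = 0.00289) and Usp26 by -0.70±0.24 (adjusted p = 0.0133). Hrk rose from 0.28±0.0707 to 1.09±0.182 CPM (1.02±0.25, adjusted p = 0.000912). Passage and the earlier and later library sets cannot be told apart here, and all genes had a median of -0.22, which TMM scaling brought to -0.02. Usp26 did not pass with TMM scaling (-0.53, adjusted p = 0.0724) or without the J-35 2i/L library of passage 10 (-0.64, adjusted p = 0.0915), and over all alternatives its adjusted p ran from 0.0096 to 0.0915. In S/L, whose passage 20 libraries took part in the choice, 60.3% of all genes were called lower and 6.88% higher at passage 20, with a median of -0.52. With TMM scaling these shares were 27.4% and 25.8% and the median -0.01. Ephx2 also had a lower mean at passage 20 (12.2±2.27 against 33.0±6.90 CPM). Trim66 (3.78±1.19 against 0.99±0.226 CPM), Usp26 (8.31±1.27 against 3.86±1.43 CPM) and Hrk (10.3±1.11 against 7.65±1.29 CPM) had higher means at passage 20. Mcf2 read 17.5±2.32 against 22.7±3.64 CPM, with a log2 difference of -0.37 that was 0.18 with TMM scaling.

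Relatives of the 5 genes, listed by family and without the 5 genes themselves, moved in both directions. Of 7 other BH3-only genes, 3 fell in 2i/L against S/L at passage 10 and 4 did not pass, with a median of -0.40 against 0.04 over all genes, of which 17.5% fell. With TMM scaling 6 fell, and 23.4% of all genes. Bmf (-1.47±0.19, adjusted p = 4.44e-08), Bik (-0.91±0.26, adjusted p = 0.00462) and Pmaip1, which encodes Noxa (-0.69±0.17, adjusted p = 0.00103), were those that fell with Hrk. After the return, against S/L at passage 20, 4 of these 7 rose and 1 fell, where 32.7% of all genes rose and 6.63% fell (with TMM scaling 21.5% and 22.8%). Bid (0.74) and Pmaip1 (0.80) were among those that rose, and Bbc3, which encodes Puma, fell (-0.38±0.15, adjusted p = 0.0366). With TMM scaling 3 rose and 1 fell. Of the prosurvival genes 3 of 8 were listed, among which Bcl2l1, encoding Bcl-xL, fell in 2i/L (-0.36±0.14, adjusted p = 0.0452). The 3 effectors Bax, Bak1 and Bok did not pass there, and Bok rose after the return (1.24).

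Of 47 other ubiquitin-specific proteases 13 rose and 5 fell in 2i/L at passage 10 (median 0.16). Over all genes 22.7% rose and 17.5% fell there, shares that also stand beside the lists that follow. The largest changes among the proteases were those of Usp29 (1.97±0.24, adjusted p = 1.21e-08), Usp44 (-1.95±0.22, adjusted p = 3.02e-09) and Usp46 (1.16±0.15, adjusted p = 7.42e-08). Usp29 and Usp37 are close relatives of Usp26, and after the return they stood at -0.22±0.19 (adjusted p = 0.373) and -0.08±0.12 (adjusted p = 0.643) against S/L. After the return 20 of the 47 rose and 2 fell, and with TMM scaling 13 rose and 8 fell, to be read against the shares over all genes given above for the return, as for the lists that follow. Of 13 other epoxide hydrolase and arachidonic acid genes 3 rose and 2 fell in 2i/L, with Ephx1, the microsomal epoxide hydrolase (1.59±0.20, adjusted p = 4.47e-08), Ptgr1 (1.14±0.18) and Ptgs1 (-1.11±0.22). After the return 3 rose and 3 fell, Ephx1 among the latter (-0.51±0.17, adjusted p = 0.0134); with TMM scaling 3 rose and 6 fell.

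Of 53 other Dbl family exchange factors 15 rose and 15 fell in 2i/L, with Arhgef26 (2.51±0.21), Fgd5 (-2.30±0.20) and Arhgef5 (-2.07±0.22) the largest. After the return 18 rose and 6 fell, and with TMM scaling 17 rose and 14 fell. Mcf2l, the closest relative of Mcf2, fell in 2i/L (-1.23±0.19, adjusted p = 2.77e-06), where Mcf2 rose, and was 0.27±0.16 after the return (adjusted p = 0.172). Among 7 TIF1 and HP1 genes Trim33 (0.52±0.15) and Trim24 (0.43±0.14) rose in 2i/L, and 3 more fell with TMM scaling. After the return 3 of these 7 rose and 1 fell, and with TMM scaling 3 rose and 2 fell.

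By RefSeq order Trim66 lies on chromosome 7, Hrk on 5, Ephx2 on 14 and both Usp26 and Mcf2 on X, where 3.63% of the 11354 placed genes of the table lie. The nearest measured gene on each side was read in the return against S/L at passage 20. Of these 10 neighbours Gulo, next to Ephx2, fell (-0.83±0.22, adjusted p = 0.00279), as did Gpc4, next to Usp26 (-0.65±0.24, adjusted p = 0.0317). Fbxw8, next to Hrk, rose (0.43±0.13, adjusted p = 0.00667), which did not pass with TMM scaling (0.19, adjusted p = 0.0511). The other 7 neighbours lay between -0.14 and 0.12 and did not pass, and with TMM scaling Rpl27a (-0.23, adjusted p = 0.0314) and Ptk2b (-0.31, adjusted p = 0.0397) fell. Over all genes 6.63% fell and 32.7% rose in this comparison, and with TMM scaling 22.8% and 21.5%. Lmo1, next to Trim66, averaged 0.22 CPM in S/L and 0.2 after the return. 4930550L24Rik, next to Mcf2, averaged 0.067 and 0.013 CPM. At such levels a fall could hardly show. Both neighbours of Ephx2 were lowest in 2i/L among the later groups: Gulo read 2.11 CPM in S/L, 0.35 in 2i/L and 0.943 after the return, and Ptk2b 5.69, 1.66 and 5.32 (means of 3 libraries). At passage 10 Gulo fell against S/L in 2i/L (-1.36±0.27, adjusted p = 0.0001) and in PKCi/L (-2.39±0.27, adjusted p = 1.02e-08), where Ephx2 stood at 0.57 and 0.67.

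**Figure D4:**
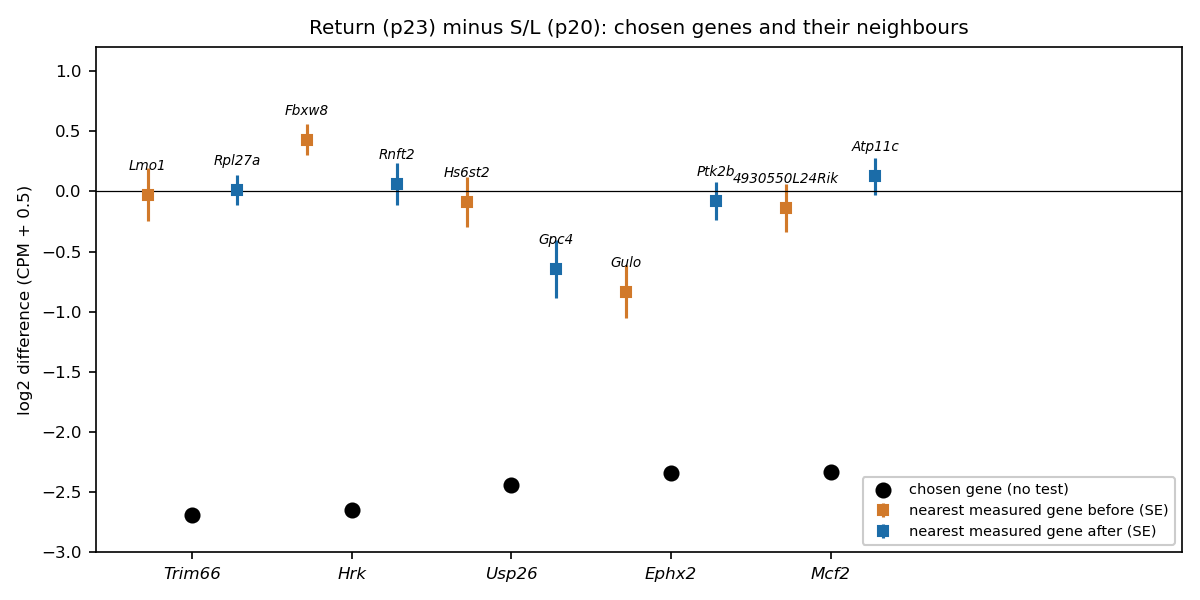
Log2 difference of the return at passage 23 minus S/L at passage 20 for the 5 genes (black, no error bar, since this comparison chose them) and the nearest measured gene before and after each in RefSeq order (squares, bars are limma standard errors). The 10 neighbours lie between -0.83 (Gulo) and 0.43 (Fbxw8). Lmo1 and 4930550L24Rik had so few reads in both groups that a fall could hardly show. That the 5 genes lie lowest follows from their choice.

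Over all 19 libraries the pairwise Pearson r of log2(CPM + 0.5) ran from -0.05 (Hrk and Mcf2) to 0.69 (Trim66 and Usp26). Ephx2 and Mcf2 had r = 0.675 and Trim66 and Mcf2 0.53, and the other 6 pairs lay between 0.101 and 0.328. Within the 9 later libraries, where the choice was made, the 6 pairs among Trim66, Hrk, Usp26 and Ephx2 had r of 0.73 to 0.98. There Mcf2 had r = 0.729 with Trim66, 0.398 with Usp26, 0.321 with Hrk and 0.116 with Ephx2. Within the 10 earlier libraries Hrk ran against Mcf2 (r = -0.753) and Trim66 (r = -0.71). These points share groups and library sets, so r is a description.

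The genes most like each of the 5 over the 19 libraries were different genes. Mcf2 was most like Alg13, an X-linked gene of protein glycosylation (r = 0.975, and 0.954 and 0.955 within the earlier and later libraries), then Jam2 (0.936) and 2310043M15Rik (0.929). Alg13 averaged 113 CPM in S/L at passage 20, 140 in 2i/L and 69.3 after the return. Hrk was most like Trib3, a pseudokinase gene of the stress response (0.914), Otub2 (0.891) and Cyb5r2 (0.886). Trib3 averaged 35.2 CPM in S/L and 13.2 in 2i/L at passage 10, and 40.0, 15.4 and 15.3 in S/L, 2i/L and the return later. Ephx2 was most like Ldhb (0.955), Ube2k (0.955) and Ccnb1ip1 (0.94). Within the 10 earlier libraries these r were 0.233, 0.675 and -0.29, against 0.897 to 0.915 within the later ones. Trim66 was most like Zfp951 (0.865), Gm13251 (0.854) and Apod (0.851), and Usp26 like Fndc1 (0.867), B230314M03Rik (0.866) and Laptm5 (0.855).

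**Figure D5:**
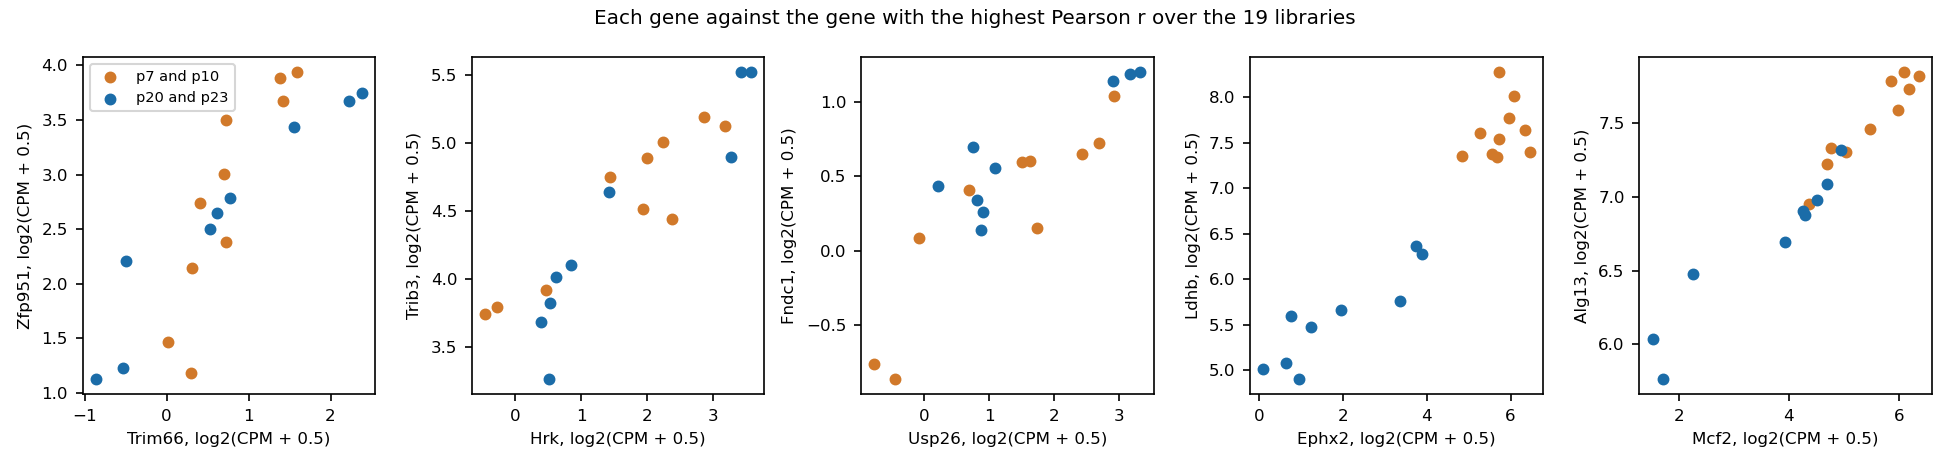
Each of the 5 genes (x axis) against the gene with the highest Pearson r to it over 19 libraries (y axis), both in log2(CPM + 0.5), with libraries of passages 7 and 10 in orange and of passages 20 and 23 in blue. Mcf2 and Alg13 follow one line in both sets (r = 0.975), whereas Ephx2 and Ldhb fall into 2 separate clouds by library set.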

How the data were processed

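Bulk RNA-seq of 19 ESC libraries in 8 groups was used. Per the labels' protocols, RNA was depleted of ribosomal RNA and made into strand-marked paired-end libraries. The submitters' processing notes name edgeR 3.8.6, HTSeq 0.6.0, STAR 2.3.0, SAMtools 0.1.18.0 and Picard 1.100, and the builds NCBIM37 and mm9, without their roles. The authors deposited CPM per gene and library, rounded to 2 decimals, and each of the 12942 genes listed was above 1 CPM in at least 3 libraries (lowest third-highest value 1.01). Read counts were not recovered from the rounded values, so no count model was run.

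The tests used limma 3.58.1 (R 4.3.3, eBayes with trend) on log2(CPM + 0.5), in a single fit of 8 group means to the 19 libraries that left 11 degrees of freedom, adjusted by Benjamini-Hochberg within each comparison at 0.05, two-sided. The 5 genes and the gene lists were chosen with earlier results of these data known. Comparisons that share a library with the choice carry no test for the 5 genes, and for relatives and neighbours those tests were added after the values were seen. Named relatives are up to 3 called genes per list with the largest change in 2i/L at passage 10, all others being chosen after their values were seen. A further gene list is not reported here. Like genes are the 3 with the highest Pearson r. TMM scaling was an own implementation (trims of 0.3 and 0.05). Depth was read by fitting whole-read steps to values up to 0.5 CPM. The scripts were tested on simulated data. Line names pair samples, since they name the same ESC line: in groups of 3, same-line residuals had a median r of 0.107 (-0.072 to 0.263, 9 pairs). Whether libraries of 1 line are separate cultures beyond the medium is not stated, so p-values measure the spread between these libraries.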

Additional observations from a re-analysis of the deposited data

Results flagged for a closer look

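For 2 of the 5 genes the order of 2i/L and S/L at passage 20 was the opposite of that at passage 10 in every library. The 2i/L minus S/L difference at passage 20 minus that at passage 10 was -2.34 on the log2 scale for Trim66 and -3.66 for Ephx2. Neither difference was tested, since the S/L libraries of passage 20 took part in the choice of the genes, and the passages fall into the 2 library sets, which cannot be told apart from passage.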

How the results depend on the processing

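Of 456 values of 1 gene in a tested comparison under an alternative, 421 kept their direction and their side of the threshold, 19 lost a call, 11 gained one and 5 changed sign, none of the last 5 with a call. Calls gained or lost are given with each gene. Counts of the 5 genes kept within 1.5 times in 162 of 176 cases. With TMM scaling 2 rose in a2i/L against S/L and 1 fell in PKCi/L against S/L. At a pseudocount of 0.1 CPM 1 rose in PKCi/L against S/L. In a fit on the 10 earlier libraries 2 rose in a2i/L against 2i/L. With each library left out in turn, 1 to 2 fell in 2i/L, in a2i/L and in PKCi/L against S/L, 0 to 1 rose in a2i/L, 1 to 2 rose in PKCi/L, and 0 to 1 fell in S/L+PD against 2i/L. The libraries behind these changes are J-34 S/L, J-35 a2i/L, both PKCi/L libraries and J-34 S/L+PD, as named with each gene. Leaving out 1 library moved Trim66 in a2i/L against S/L between -0.26 and 0.13, and Mcf2 in S/L+PD against 2i/L between -0.28 and 0.23 (0.0716 with TMM scaling). For the return against 2i/L it moved Hrk between -0.21 and 0.31 and Usp26 between -0.39 and 0.0559. Mcf2 in S/L at passage 20 against passage 10 turned to 0.18 with TMM scaling. The cause of these changes was not tested. With the ESC line as replicate block (paired by line, from either label) Ephx2 in 2i/L against S/L gained its call (0.57, adjusted p = 0.0237 and 0.0199), and no other call on the 5 genes changed. A minimum mean of 5 CPM leaves 2 of the 5 genes (8856 genes in all), so it gives no count, and the planned filter of 1 CPM in 2 libraries removed no gene. Values under that second filter are in the totals above and had to stay the same. The return minus S/L value of Trim66 moved from -3.97 to -2.03 between pseudocounts of 0.1 and 1 CPM, since its return libraries lie near 0. Few reads stand behind Hrk in 2i/L at passage 10 (about 15 and 10), Usp26 in PKCi/L (about 4 and 9) and Trim66 in the J-35 return library (about 4), the only 1 of the 3 return libraries whose depth could be read.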
